A study of Mus musculus with 36 samples.

Results

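The T and natural killer cell genes are a set of 10 genes chosen by name, namely Cd3e, Cd3d, Cd3g, Trbc2, Cd4, Cd8a, Nkg7, Gzma, Ccl5 and Il2rb. Each of the 10 symbols matched a single Ensembl identifier among the 78239 genes counted in every library. RNA was sequenced from heart, kidney and liver of untreated wild-type male C57BL/6NCrl mice, an inbred substrain of C57BL/6, killed when 8, 10 or 12 weeks old, and none of the groups carried an engineered allele. There were 4 biological replicates for each tissue and age, which made 9 groups and 36 libraries. The organs were flash-frozen and homogenized, so the poly(A) RNA came from all cells of the sample, any blood left in the vessels included. Depth lay between 21031599 and 33637390 read pairs counted on genes, so that 1 count was worth between 0.0297 and 0.0476 CPM (the count scaled by all counted pairs of the library to a common library size).

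T cells recognise antigen through a receptor whose alpha and beta chains carry a variable and a constant part. The receptor chains do not signal themselves but through the CD3 chains, which Cd3e, Cd3d and Cd3g encode, and Trbc2 encodes a constant part of the beta chain. The coreceptors CD4 and CD8 bind class II and class I major histocompatibility molecules and mark helper and cytotoxic T cells. Natural killer cells lack the T cell receptor and kill with granules of perforin and granzymes, as cytotoxic T cells do. Healthy heart, kidney and liver hold small resident and circulating populations of these lymphocytes. Cd4 and Cd8a are also expressed by subsets of dendritic cells, so neither gene marks T cells alone.

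Trbc2 has a near-identical neighbour, Trbc1, and the sequences of both are shown because their likeness limits what a count of either means. On GRCm39, Trbc1 and Trbc2 lie on the + strand of chromosome 6. The first exon of both is 375 bases long, and 1 base differs, at position 260 counted from the 5′ end of the exon. The longest identical run there is 259 bases, and identity is 99.7%. Exon 3, of 107 bases, is 86.0% identical. The 150 bases around the differing base of the first exon (chr6:41515336-41515485 for Trbc1 and chr6:41523848-41523997 for Trbc2) and the whole of exon 3 (chr6:41516163-41516269 and chr6:41524706-41524812) follow, 5′ to 3′, with capitals at the bases that differ between the genes.

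Trbc1 exon 1: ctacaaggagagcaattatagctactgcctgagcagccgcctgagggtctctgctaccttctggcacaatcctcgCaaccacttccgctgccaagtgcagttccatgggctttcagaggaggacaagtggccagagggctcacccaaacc
Trbc2 exon 1: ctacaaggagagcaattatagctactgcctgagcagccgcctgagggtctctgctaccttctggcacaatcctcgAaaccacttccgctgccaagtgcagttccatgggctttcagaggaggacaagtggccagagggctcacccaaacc
Trbc1 exon 3: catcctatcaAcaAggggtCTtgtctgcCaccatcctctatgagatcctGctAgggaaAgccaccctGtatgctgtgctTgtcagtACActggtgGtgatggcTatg
Trbc2 exon 3: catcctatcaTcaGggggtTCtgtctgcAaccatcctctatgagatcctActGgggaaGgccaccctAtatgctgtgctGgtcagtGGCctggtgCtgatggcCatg

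A read pair that lies within the first exon and misses the differing base matches both genes equally well, and pairs with several equal matches were not counted on any gene. The counts of Trbc2 are therefore uncertain, and the values of Trbc1 are given beside them. Of the other members, Cd3e shares 135 of 4081 exonic bases with the annotated gene Gm48719, and Il2rb shares 376 of 4348 with Gm62993. The counts were made without regard to strand, so reads there cannot be assigned to either gene.

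On GRCm39 the CD3 genes lie next to each other on chromosome 9, Cd3g at chr9:44880870-44891735 (- strand), Cd3d at chr9:44893083-44899173 (+) and Cd3e at chr9:44910037-44920925 (-). Chromosome 6 holds Trbc2 at chr6:41523664-41525286 (+), Cd8a at chr6:71350411-71356157 (+) and Cd4 at chr6:124841655-124874758 (-). The others lie apart, Nkg7 at chr7:43086497-43087678 (+), Ccl5 at chr11:83416602-83425942 (-), Gzma at chr13:113230355-113237524 (-) and Il2rb at chr15:78363456-78395566 (-). All but Trbc2, a constant segment of the receptor locus, are annotated as protein-coding, and a value of a gene covers all of its exons, untranslated parts included.

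All 10 genes were detected in each tissue, and all were scarce. Of the 360 values (10 genes in 36 libraries), 9 were counts of 0, 211 (58.6%) were under 10, the median was 8 and the highest was 61. The summed count of the 10 genes was 44 to 98 in a heart library, 88 to 287 in a kidney library and 60 to 177 in a liver library. As CPM, kidney had the highest sum at 6.10 ± 1.58 (mean ± SD, n = 12), followed by liver at 4.14 ± 1.02 and heart at 2.73 ± 0.49 (n = 12 each). The lead of kidney over liver is shown for this scale only. Between liver and kidney the median log2 difference of the 10 genes was -0.62 with library size alone. It was 0.17 with TMM, the main scaling described below. Cd8a and Il2rb made up 23.47% and 20.99% of the kidney sum, whereas Cd4 was the largest part in heart (35.43%) and liver (31.47%). At so few counts a change has to be large to exceed the counting error, and in whole tissue fewer cells of a type and less RNA per cell cannot be told apart.

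The labels of heart and liver were borne out by their markers. The summed level of Myh6, Tnnt2, Ryr2 and Nppa was at least 27288 CPM in heart and at most 4.94 CPM elsewhere, and that of Alb, Apoa1, Ttr and Cps1 was at least 70798 CPM in liver and at most 198 CPM elsewhere. Markers of other blood and immune cells differed between the tissues too. Summed levels of 5 red cell genes lay between 1.19 and 6.95 CPM in kidney, between 111 and 196 in liver and between 197 and 886 in heart. Of 6 thymocyte genes, Rag1, Rag2 and Ptcra had at most 3 counts in any library, whereas Dntt had 24 to 58 counts, Themis 2 to 44 and Cd1d1 3128 to 7372 in liver libraries. Of 5 lymph node stroma genes, Glycam1 and Madcam1 had at most 4 counts in any library, whereas Ccl21a had 307 to 676 in heart and 80 to 195 in kidney, Cxcl13 5 to 69 in liver and Ccl19 6 to 37 in kidney. The part of such cells in the levels of the members was not tested.

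**Figure D1:**
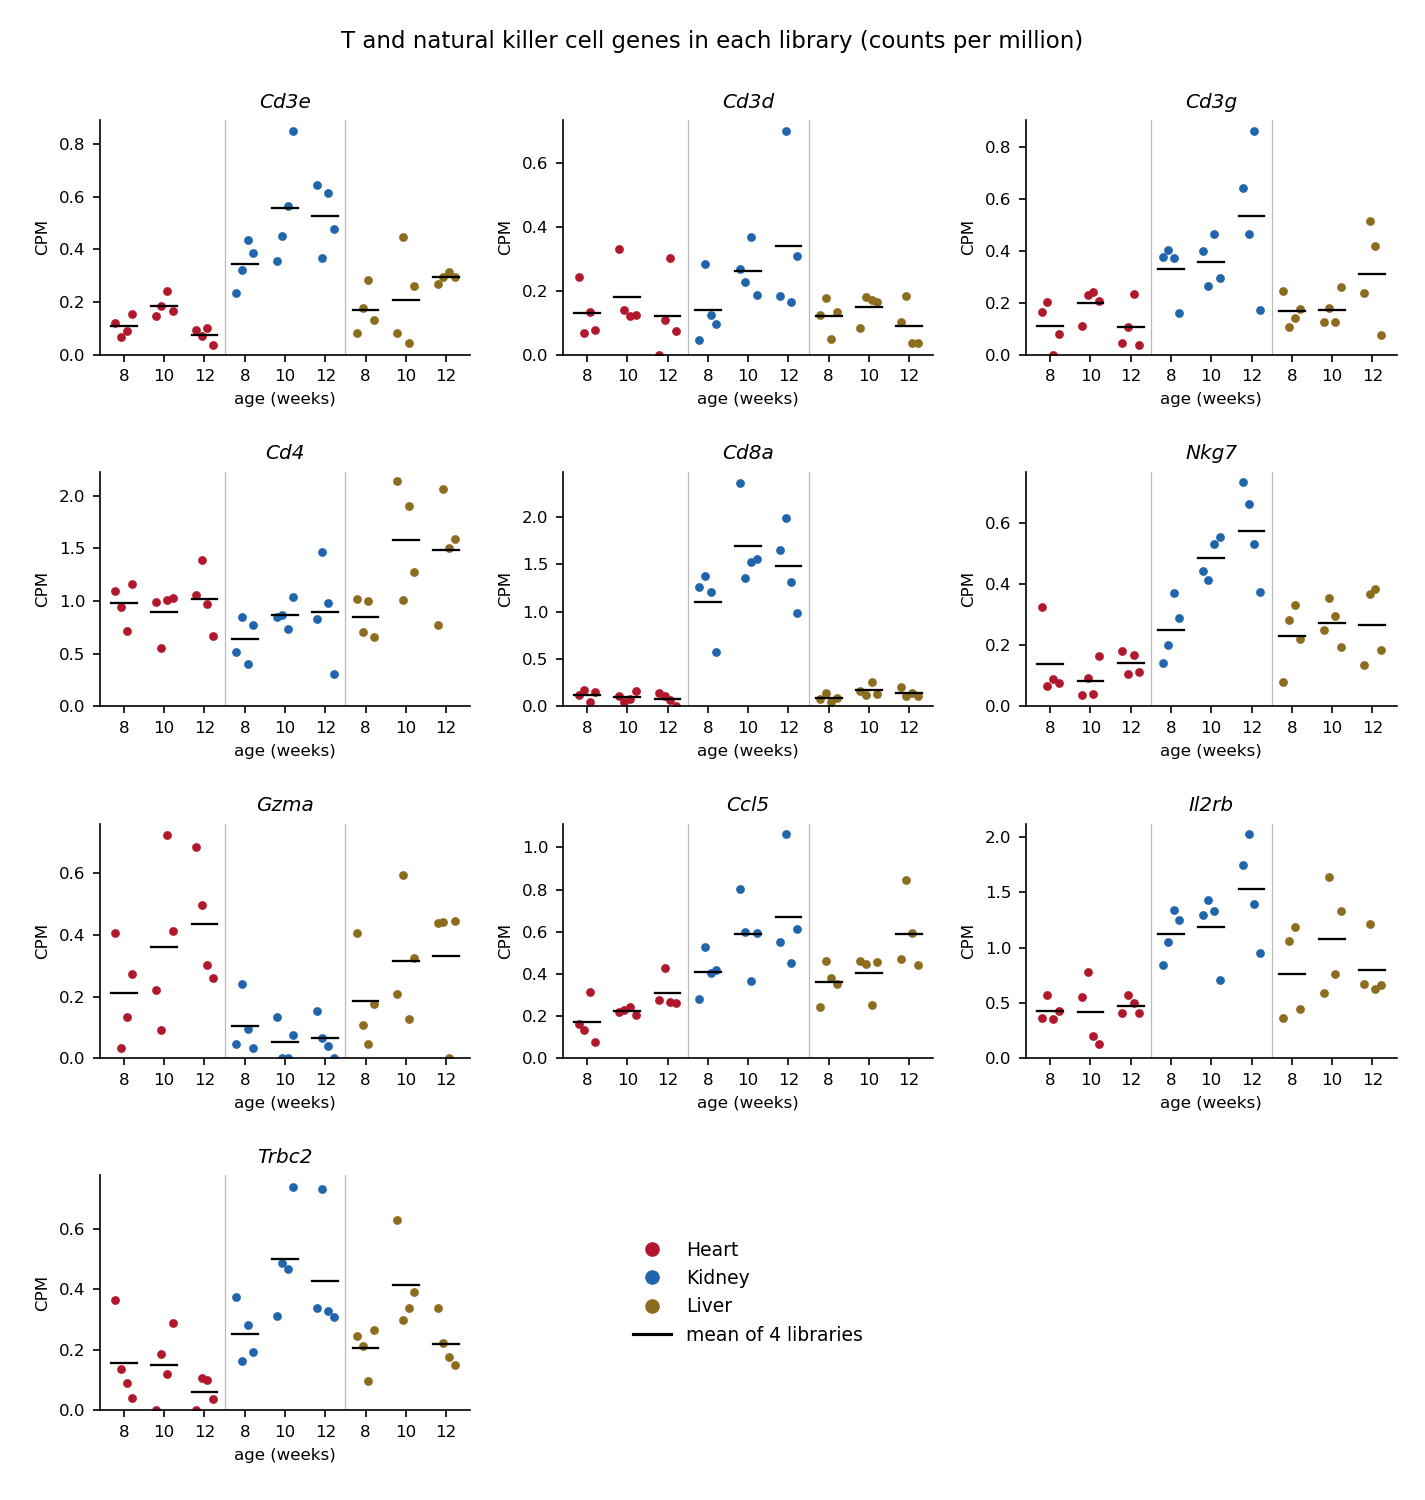
CPM of each of the 10 genes (vertical axis, a scale of its own in each panel) in the 36 libraries, by tissue (colour) and age in weeks (horizontal axis), with points for libraries and black lines for the mean of 4. Cd8a in kidney lay between 0.579 and 2.36 CPM, above all heart and liver libraries, whereas Gzma in kidney did not exceed 0.242 CPM.

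Levels of different genes were compared per kilobase of exon. In kidney the order was Trbc2 (0.568 ± 0.268 CPM per kilobase, mean ± SD, n = 12), Ccl5 (0.541 ± 0.206), Nkg7 (0.477 ± 0.193), Cd8a (0.394 ± 0.125), Il2rb (0.294 ± 0.0848), Cd4 (0.178 ± 0.0678), Cd3g, Cd3e, Cd3d and last Gzma (0.0476 ± 0.0472). In liver it was Ccl5 (0.439 ± 0.153), Trbc2, Cd4, Nkg7, Il2rb, Gzma, Cd3g, Cd3e, Cd3d and Cd8a (0.0365 ± 0.0153), and in heart Ccl5 (0.229 ± 0.0867), Gzma, Cd4, Trbc2, Nkg7, Il2rb, Cd3d, Cd3g, Cd3e and Cd8a (0.0276 ± 0.0147). Neighbours in these orders mostly lay closer together than the larger of their SDs. The exceptions were Il2rb and Cd4 in kidney, 0.117 CPM per kilobase apart, and Il2rb and Cd3d in heart, 0.0458 apart. Cd8a thus ranked in the fourth place in kidney and last in heart and liver.

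The question of the first comparison was how the genes differ between the organs, with all ages averaged. It used all 36 libraries in a single edgeR model, in which all 10 genes passed the filter on low counts, and a gene was called when its Benjamini-Hochberg adjusted p over 19716 genes was under 0.05. Between kidney and heart 9 of the 10 genes were called, where 86.1% of all genes were. Between liver and heart 7 were called (84.2% of all genes), and between liver and kidney 4 (83.1%). Since the organs differed in most genes, these counts say little about the set, and the sizes of the differences say more. Per the methods of the study, each age had fewer mice than libraries, so some libraries of different organs came from the same mouse. The model took them as independent.

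Scaling between organs matters for all of these values. The main scaling was TMM, which sets the bulk of the genes level. Its factors were 0.896 to 0.981 in heart, 1.30 to 1.42 in kidney and 0.724 to 0.821 in liver. With library size alone, which gives the CPM scale, the median log2 difference of all genes moved from 0.15 to 0.67 between kidney and heart, from 0.00 to -0.22 between liver and heart and from -0.16 to -0.93 between liver and kidney. The share of called genes that were higher moved from 54.7% to 70.1%, from 50.1% to 42.4% and from 44.6% to 19%. Members called under that scaling numbered 8, 5 and 8. Differences are given below with TMM, and where library size alone changed a call or a direction of a named gene its value follows.

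Of the CD3 chains, Cd3e was the one that differed most between organs. It had 1 to 6 counts in heart, 5 to 23 in kidney and 1 to 15 in liver, with a median of 0.111 CPM (range 0.0372 to 0.242) in heart, 0.443 (0.234 to 0.851) in kidney and 0.265 (0.0423 to 0.446) in liver. All but 1 kidney library lay above the highest heart library, and liver overlapped with both. Cd3e was higher in kidney than in heart by 1.48 ± 0.28 on the log2 scale (± SE, edgeR, adjusted p = 5.18e-06) and higher in liver than in heart by 1.19 ± 0.31 (adjusted p = 0.000343). Liver and kidney differed by -0.28 ± 0.24 (adjusted p = 0.267), and by -1.07 with library size alone, where the adjusted p was 8.23e-05.

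Cd3g, the gamma chain, had a median of 0.136 CPM in heart (0 to 0.242), 0.388 in kidney (0.161 to 0.861) and 0.178 in liver (0.0740 to 0.515), with overlap between all 3 organs. Its log2 difference was 0.99 ± 0.33 between kidney and heart (edgeR, adjusted p = 0.00506) and 0.87 ± 0.36 between liver and heart (adjusted p = 0.0214), the latter 0.61 with library size alone (adjusted p = 0.109). Cd3d, the delta chain, was the one member not called in any pair of organs with TMM. Its median was 0.205 CPM in kidney, against 0.122 in heart and 0.127 in liver. Its log2 difference between kidney and heart was 0.15 ± 0.36 (edgeR, adjusted p = 0.695). With library size alone, Cd3d and Cd3g were lower in liver than in kidney by -0.94 and -0.90 (edgeR, adjusted p = 0.015 and 0.00599).

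Trbc2 had medians of 0.104 CPM in heart, with 2 libraries at 0 counts, 0.332 in kidney and 0.255 in liver. It was higher in kidney than in heart by 1.17 ± 0.36 (log2, edgeR, adjusted p = 0.00177) and higher in liver than in heart by 1.45 ± 0.37 (adjusted p = 0.000313). Trbc1, the near-identical neighbour, was not called in either comparison with TMM, with log2 differences of 0.34 ± 0.27 (edgeR, adjusted p = 0.235) and 0.51 ± 0.30 (adjusted p = 0.106). With library size alone it was called higher in kidney than in heart, by 0.86 (edgeR, adjusted p = 0.00392). Over 12 libraries the counts of Trbc2 and Trbc1 were 131 and 120 in kidney, 90 and 85 in liver, and 37 and 58 in heart. By age, the ratio of Trbc2 to Trbc1 was 1.17, 1.1 and 1.04 in kidney at 8, 10 and 12 weeks, and 0.769, 0.938 and 2.27 in liver, where 12 weeks had 25 and 11 counts. Trac, the constant part of the alpha chain, was higher in kidney than in heart by 0.69 ± 0.26 (edgeR, adjusted p = 0.0131) and lower in liver than in heart, by -0.77 ± 0.32 (adjusted p = 0.0228), which is opposite in sign to Trbc2.

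Cd8a, the alpha chain of CD8, showed the largest difference of the 10 genes between kidney and heart. It had 18 to 60 counts in each kidney library, 0 to 5 in each heart library and 1 to 6 in each liver library. The median was 1.36 CPM in kidney (0.579 to 2.36), 0.108 in heart (0 to 0.169) and 0.125 in liver (0.0475 to 0.254). The lowest kidney library lay above the highest library of both other organs, and heart and liver overlapped. Cd8a was the only member whose libraries did not overlap between organs, as 44.4% of all genes were without overlap and higher in kidney than in heart, and 50.7% without overlap and lower in liver than in kidney. The difference was 3.24 ± 0.27 on the log2 scale between kidney and heart, 9.47-fold (edgeR, adjusted p = 1.1e-14), and -2.62 ± 0.25 between liver and kidney (adjusted p = 1.14e-12). The latter was like that of Gzma in size with TMM, and with library size alone it was -3.40 against 1.90 for Gzma. Liver and heart differed by 0.62 ± 0.33 (adjusted p = 0.0762).

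The beta chain of CD8, Cd8b1, did not share this difference in size. CD8 on conventional cytotoxic T cells is a dimer of an alpha and a beta chain, whereas the dimer of 2 alpha chains is found on other lymphocytes and on some dendritic cells. Over the 12 libraries of a tissue, Cd8a and Cd8b1 had 470 and 47 counts in kidney, a ratio of 10.0, 31 and 16 in heart (1.94) and 43 and 15 in liver (2.87). Cd8b1 had 2 to 7 counts in a kidney library, 0 to 5 in a heart library and 0 to 4 in a liver library. The ratio within a single kidney library ran from 4.83 to 30.0 with a median of 8.75, and Cd8a was above Cd8b1 in 12 of 12 kidney libraries, 9 of 12 heart libraries and 10 of 12 liver libraries. Cd8b1 did not pass the filter in the model of 36 libraries, so the ratios are a description with no test. At 8, 10 and 12 weeks the ratio in kidney was 7.87, 9.32 and 13.5, from only 15, 19 and 13 counts of Cd8b1 over 4 libraries. Of 6 dendritic cell markers, 4 were higher in kidney than in heart, as Cd8a was, namely Itgax by 2.41 ± 0.24, Cd209a by 1.89 ± 0.26, Xcr1 by 1.89 ± 0.35 and Flt3 by 1.87 ± 0.23 (log2, edgeR, adjusted p = 9.18e-12, 1.97e-08, 1.97e-06 and 9.94e-10). All 4 were also lower in liver than in kidney, by -0.94 to -2.30, as was Zbtb46, by -0.45 ± 0.08 (edgeR, adjusted p = 1.05e-05). Siglech was called the other way, higher in liver than in kidney by 0.72 ± 0.30 (edgeR, adjusted p = 0.0247). That call was lost with library size alone, at -0.064 (adjusted p = 0.841). Zbtb46, which made up most of the summed CPM of the 6 markers and is also made by endothelial cells, was lower in kidney than in heart, by -0.92 ± 0.08 (adjusted p = 1.41e-12). Siglech was not called between kidney and heart. The summed level was 15.1 to 20.6 CPM in kidney, 12.5 to 20.1 in heart and 4.19 to 9.02 in liver. The part of dendritic cells in the level of Cd8a was not tested.

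**Figure D2:**
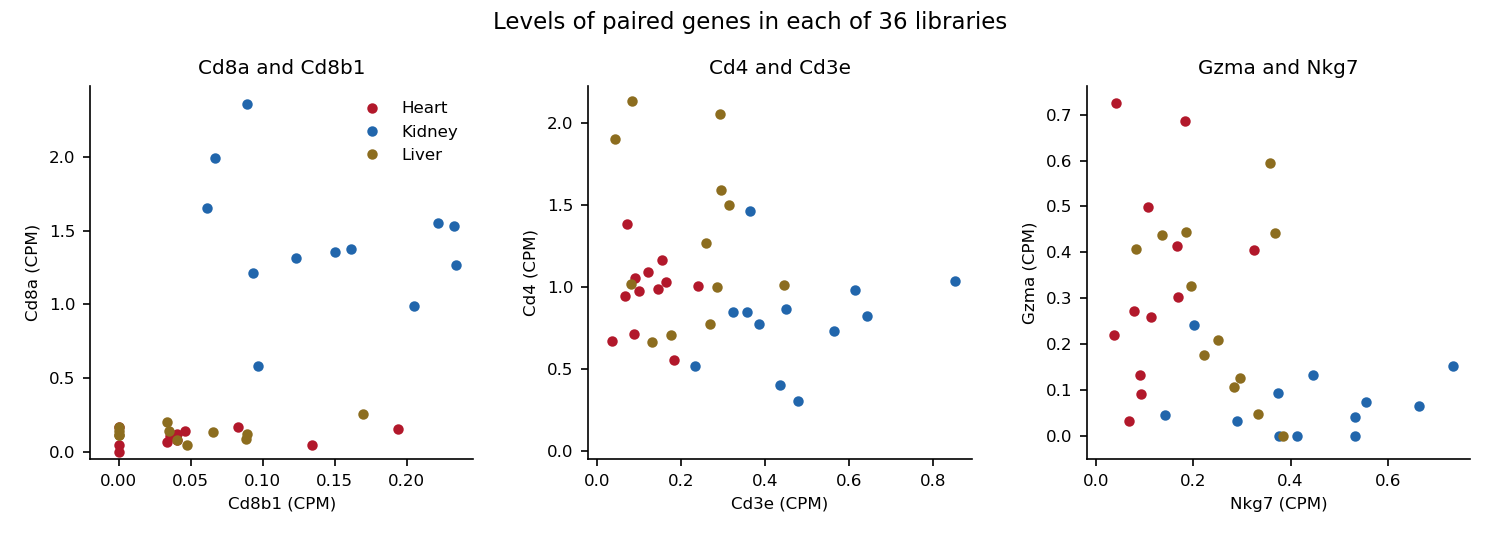
CPM of 1 gene against another in each of the 36 libraries (points, coloured by tissue) for Cd8a and Cd8b1, Cd4 and Cd3e, and Gzma and Nkg7. The first gene of each pair is on the vertical axis. Kidney libraries lie above the others in Cd8a while their Cd8b1 overlaps with them, and stay low in Gzma at the highest levels of Nkg7. In Cd3e most kidney libraries lie to the right of heart and their range overlaps with that of liver, at overlapping levels of Cd4.

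Cd4, the coreceptor of helper T cells, had a pattern of its own, highest in liver. Its median was 1.14 CPM in liver (0.663 to 2.13), 0.999 in heart (0.552 to 1.39) and 0.836 in kidney (0.307 to 1.46), and all 3 ranges overlapped. Cd4 was higher in liver than in kidney by 1.45 ± 0.19 on the log2 scale (edgeR, adjusted p = 2.8e-08), and 0.66 with library size alone (adjusted p = 0.00241). It was lower in kidney than in heart, by -0.81 ± 0.20 (edgeR, adjusted p = 0.000307), a call lost with library size alone at -0.29 (adjusted p = 0.17). It was higher in liver than in heart by 0.63 ± 0.19 (adjusted p = 0.00293), a call also lost with library size alone, at 0.37 (adjusted p = 0.0772).

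Cd4 did not follow Cd3e from organ to organ. Over 12 libraries Cd4 and Cd3e had 299 and 37 counts in heart, a ratio of 8.08, 415 and 75 in liver (5.53) and 265 and 160 in kidney (1.66). Cd4 was above Cd3e in all 12 heart and all 12 liver libraries and in 10 of 12 kidney libraries. The 9 macrophage markers summed to 161 to 256 CPM in heart, 136 to 491 in liver and 106 to 143 in kidney. The part of other cells in the level of Cd4 was not tested.

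Among the genes of cytotoxic granules, Nkg7 and Gzma differed in opposite directions between kidney and heart. Nkg7, a membrane protein of the granules, had medians of 0.0993 CPM in heart (0.0367 to 0.324), 0.429 in kidney (0.141 to 0.735) and 0.267 in liver (0.0814 to 0.384). Gzma, the protease granzyme A, had medians of 0.287 CPM in heart (0.0338 to 0.725), 0.0567 in kidney (0 to 0.242) and 0.268 in liver (0 to 0.595). On the CPM scale kidney was thus the highest organ for Nkg7 and the lowest for Gzma, with overlap between organs in both.

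Nkg7 was higher in kidney than in heart by 1.29 ± 0.29 (log2, edgeR, adjusted p = 6.55e-05) and higher in liver than in heart by 1.37 ± 0.30 (adjusted p = 5.61e-05). Between liver and kidney it differed by 0.09 ± 0.24 (edgeR, adjusted p = 0.77), and the sign turned with library size alone, to -0.70 (adjusted p = 0.00692). Gzma was lower in kidney than in heart, by -2.62 ± 0.56, 6.17-fold (edgeR, adjusted p = 1.23e-05), and higher in liver than in kidney by 2.66 ± 0.57 (adjusted p = 1.37e-05). Both calls of Gzma were kept with library size alone, at -2.13 and 1.90. Between liver and heart Gzma differed by 0.04 ± 0.42 (adjusted p = 0.969), and by -0.23 with library size alone (adjusted p = 0.624). Gzma had 24 counts against 149 of Nkg7 over the 12 kidney libraries, 102 against 37 in heart and 93 against 83 in liver.

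Ccl5, a chemokine that memory T cells and natural killer cells store and release, and Il2rb, the beta chain shared by the receptors of interleukin 2 and interleukin 15, were both lowest in heart. Ccl5 had medians of 0.236 CPM in heart (0.0777 to 0.427), 0.538 in kidney (0.281 to 1.06) and 0.451 in liver (0.244 to 0.846). Il2rb had medians of 0.420 CPM in heart (0.124 to 0.782), 1.31 in kidney (0.703 to 2.03) and 0.718 in liver (0.366 to 1.64). Ccl5 was higher than in heart by 0.73 ± 0.21 in kidney (log2, edgeR, adjusted p = 0.0016) and by 1.22 ± 0.22 in liver (adjusted p = 2.91e-06). Il2rb was higher than in heart by 0.99 ± 0.24 in kidney (adjusted p = 0.000234) and by 1.24 ± 0.25 in liver (adjusted p = 1.81e-05).

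Between liver and kidney the direction of several members depended on the scaling. Ccl5 was called higher in liver, by 0.49 ± 0.19 (edgeR, adjusted p = 0.0165), and stood at -0.30 with library size alone (adjusted p = 0.128). Il2rb was at 0.25 ± 0.22 (edgeR, adjusted p = 0.283) and turned to -0.54 (adjusted p = 0.0193), and Trbc2 was at 0.28 ± 0.30 (adjusted p = 0.38) and turned to -0.50 (adjusted p = 0.105). Only Cd4, Gzma and Cd8a were called in the same direction under both scalings in this comparison.

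**Figure D3:**
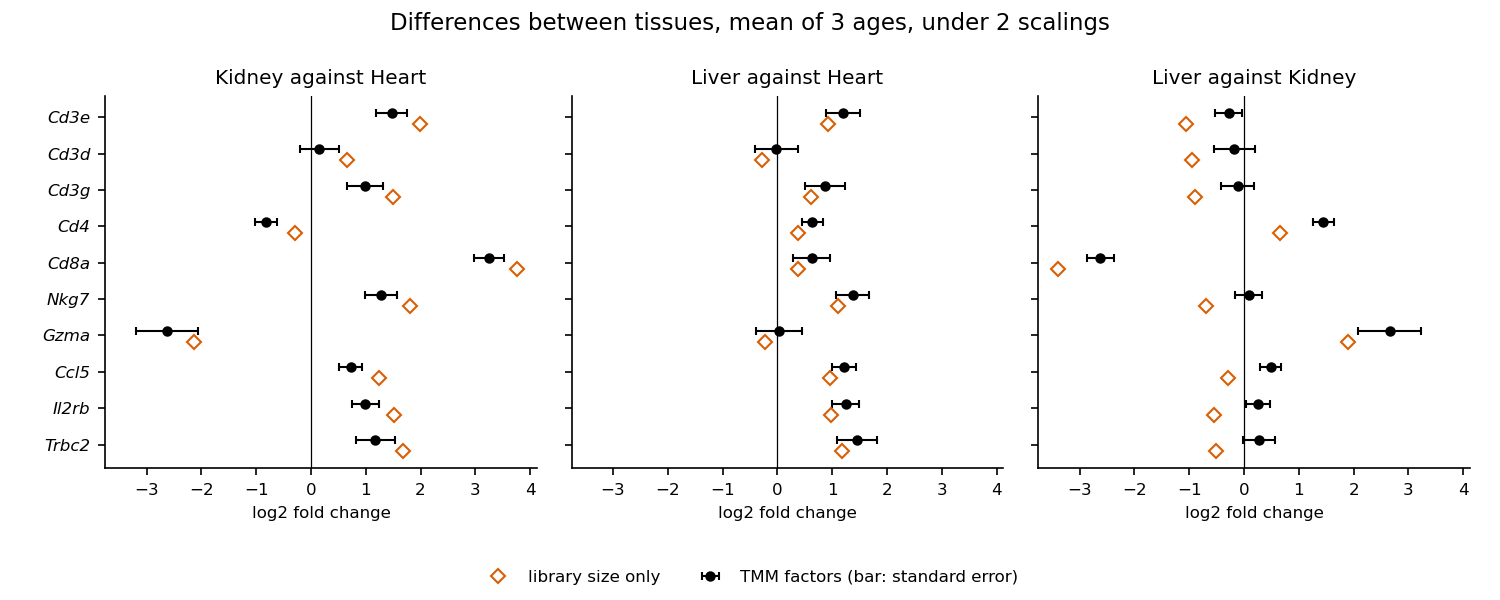
Log2 difference between organs (horizontal axis, mean of 3 ages) for each of the 10 genes, with TMM factors (black, bar for the standard error) and with library size alone (open diamonds). Cd8a and Gzma lie far from 0 in both comparisons with kidney under both scalings, whereas Nkg7, Ccl5, Il2rb and Trbc2 change sides of 0 between liver and kidney.

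The other genes of the pathway were read from lists of 31 T cell genes and 15 genes of natural killer and cytotoxic cells. In the model of 36 libraries 22 and 4 of them passed the filter. Of the T cell genes 12 were called higher and 6 lower in kidney than in heart, 7 higher and 8 lower in liver than in heart, and 3 higher and 10 lower in liver than in kidney. With library size alone these became 14 and 6, 6 and 8, and 3 and 17. Of all genes, 47.1% were called higher and 39.0% lower in kidney than in heart with TMM. These shares were 42.2% and 42.0% for liver against heart, and 37.0% and 46.0% for liver against kidney. The counts of the list therefore say little about it. Several T cell genes were led by organs that did not have the most CD3. Thy1, a surface glycoprotein of T cells, neurons and fibroblasts, had 8.23 ± 1.16 CPM in heart (mean ± SD, n = 12), 1.66 ± 0.422 in kidney and 0.635 ± 0.252 in liver. Cd28, the costimulatory receptor, had 6.76 ± 0.799 CPM in heart and 0.280 ± 0.181 in kidney, and Ctla4, its inhibitory relative, 1.60 ± 0.412 and 0.0518 ± 0.0364.

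The receptor chains that partner Il2rb were also highest in heart. Il2ra, the alpha chain, had 3.34 ± 0.504 CPM in heart, against 0.364 ± 0.137 in kidney and 0.226 ± 0.0864 in liver, and Il2rg, the gamma chain, had 7.41 ± 1.82, 3.80 ± 0.781 and 1.88 ± 0.555. Both were called lower in kidney than in heart, by -3.70 ± 0.17 and -1.48 ± 0.10 (log2, edgeR, adjusted p = 6.29e-21 and 2.67e-15), where Il2rb was called higher. Cd247, the zeta chain of the CD3 complex, was lower in kidney than in heart by -1.54 ± 0.26 (adjusted p = 1.24e-06) and lower in liver than in heart by -3.28 ± 0.41 (adjusted p = 9.25e-11), opposite in sign to Cd3e in both.

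In kidney, Bcl11b, a transcription factor of the T lineage, had 8.62 ± 1.38 CPM, against 1.94 ± 0.485 in heart and 0.107 ± 0.0763 in liver. Signalling genes of T cells were also called higher in kidney than in heart. Skap1, an adaptor, differed by 3.07 ± 0.32 (log2, edgeR, adjusted p = 2.77e-12), and Lck, the kinase that CD4 and CD8 bring to the receptor, by 1.24 ± 0.28 (adjusted p = 8.63e-05). Both were lower in liver than in kidney, by -2.66 ± 0.33 (adjusted p = 1.37e-10) and -0.83 ± 0.27 (adjusted p = 0.00528), as were Lef1, by -2.35 ± 0.45 (adjusted p = 8.06e-07), and Txk, by -2.06 ± 0.41 (adjusted p = 6.37e-06).

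In liver, Zap70, the kinase recruited to the phosphorylated receptor, had 5.63 ± 1.65 CPM, against 0.112 ± 0.0450 in heart and 0.311 ± 0.0929 in kidney. Tcf7, a transcription factor of T cells and their precursors, had 4.76 ± 1.60 CPM in liver, 0.716 ± 0.255 in heart and 1.14 ± 0.290 in kidney. S1pr5, a receptor that guides the traffic of natural killer cells, had 6.71 ± 3.00 CPM in liver, 1.45 ± 0.443 in heart and 0.0247 ± 0.0360 in kidney. Icos, a costimulatory receptor, was higher in liver than in kidney by 1.95 ± 0.30 (log2, edgeR, adjusted p = 2.74e-07). The markers that define natural killer cells and their killing were scarce. Ncr1, their activating receptor, had 0 to 6 counts in a library and Prf1, the pore protein perforin, 0 to 9, and neither passed the filter. Ptprcap was listed at 0 in all 36 libraries.

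The second question was whether the genes changed between 8 and 12 weeks of age. Each organ was tested by itself, in an edgeR model of its 12 libraries. No member was called in any of the 9 comparisons of ages by edgeR's quasi-likelihood test, by DESeq2 or by limma-voom. The filter on low counts left 3 members in heart (Cd4, Gzma and Il2rb), 9 in kidney (all but Gzma) and 4 in liver (Cd4, Ccl5, Il2rb and Trbc2), and a gene needed a mean count of 10 in only 1 of the 3 ages to pass. In kidney 5 of the 9 (Cd3d, Cd3e, Cd3g, Nkg7 and Trbc2), in liver 2 of the 4 (Ccl5 and Trbc2) and in heart 1 of the 3 (Gzma) missed that mean at 8 weeks and passed only through a later age. The direction of these changes is therefore partly set by the filter, and counts of direction are given below over all 10 genes, from the fit without the filter. Genes called made up 4.56%, 1.06% and 0.0396% of 15137 genes in heart at 12 against 8, 10 against 8 and 12 against 10 weeks, 0.0567%, 0.929% and 0.482% of 17649 in kidney, and 0.239%, 0.0204% and 0.0545% of 14672 in liver.

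In kidney, 9 of all 10 genes had a positive log2 change from 8 to 12 weeks in the fit without the filter, with a median of 0.65 where the median of all genes was 0.00. Gzma, at 11, 5 and 8 counts over the 4 libraries of 8, 10 and 12 weeks, was the negative one at -0.56, and no gene passed the adjusted p with or without the filter. The lowest adjusted p with the filter was that of Nkg7. In the 4 kidney libraries of 8 weeks Nkg7 had 0.141, 0.202, 0.373 and 0.289 CPM (3, 5, 12 and 9 counts), in those of 10 weeks 0.445, 0.413, 0.532 and 0.555 CPM and in those of 12 weeks 0.735, 0.665, 0.533 and 0.375 CPM (24, 20, 13 and 11 counts). All libraries of 10 and 12 weeks lay above those of 8 weeks, though at 12 weeks the lowest did so by 0.375 against 0.373. The change was 1.15 ± 0.33 at 12 weeks (edgeR, adjusted p = 0.221) and 0.87 ± 0.34 at 10 weeks (adjusted p = 0.198). Nkg7 was the only member without overlap in either comparison, and 2.73% and 5.24% of all genes that passed the filter were without overlap and higher at 12 and at 10 weeks. Its mean count at 8 weeks was 7.25, so Nkg7 itself passed the filter only through the later ages where it was high.

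Cd3d in kidney had 1, 7, 4 and 3 counts at 8 weeks, 6, 6, 11 and 5 at 10 weeks and 6, 21, 4 and 9 at 12 weeks. The range of 12 weeks rested on replicate 2, at 0.698 CPM, while the others lay between 0.164 and 0.307. Its change at 12 weeks was 1.31 ± 0.58 (edgeR, adjusted p = 0.381). Ccl5 had 0.281, 0.525, 0.405 and 0.418 CPM at 8 weeks and 0.551, 1.06, 0.451 and 0.614 at 12 weeks, groups that overlapped, and a change of 0.73 ± 0.34 (adjusted p = 0.419). With Nkg7 these made up the 3 of the 9 genes tested with an unadjusted p under 0.05 at 12 weeks, where 11.7% of all genes had one. Nkg7 and Cd3d passed the filter only through a later age, so this count is partly set by it. Without the filter the same 3 of all 10 genes had such a p, and no share of all genes is given for that fit.

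Cd8a in kidney had 1.27, 1.37, 1.21 and 0.579 CPM at 8 weeks, 2.36, 1.35, 1.53 and 1.55 at 10 weeks and 1.65, 1.99, 1.31 and 0.989 at 12 weeks. The ages overlapped, and the changes were 0.60 ± 0.29 at 10 weeks (edgeR, adjusted p = 0.315) and 0.46 ± 0.29 at 12 weeks (adjusted p = 0.564). Trbc2 had 0.375, 0.162, 0.280 and 0.193 CPM at 8 weeks and 0.312, 0.488, 0.466 and 0.740 at 10 weeks, a change of 0.99 ± 0.41 (adjusted p = 0.232), and Trbc1 changed by 1.08 ± 0.42 at the same time (adjusted p = 0.203). At 12 weeks Trbc2 stood at 0.79 ± 0.42 (adjusted p = 0.48) and Trbc1 at 0.97 ± 0.42 (adjusted p = 0.385). With Nkg7, Trbc2 made up the 2 of 9 members with an unadjusted p under 0.05 at 10 weeks, where 16.5% of all genes had one. Both passed the filter only through a later age, so this count too is partly set by it. Without the filter 3 of all 10 genes had such a p at 10 weeks, Cd8a with these.

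The other kidney members changed by 0.45 to 0.72 at 12 weeks, Cd3g by 0.72 ± 0.42, Cd3e by 0.58 ± 0.33, Cd4 by 0.51 ± 0.38 and Il2rb by 0.45 ± 0.27 (log2 ± SE, edgeR, adjusted p = 0.537, 0.520, 0.643 and 0.542). At 10 weeks the log2 changes of the 9 genes tested lay between 0.04 and 0.99. Over all 10 genes without the filter 9 were positive at 10 weeks, with a median of 0.53, and Gzma stood at -1.04. From 10 to 12 weeks 7 of the 10 were positive, with a median of 0.27. The comparisons at 10 and at 12 weeks share the libraries of 8 weeks, so their like directions are not independent.

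**Figure D4:**
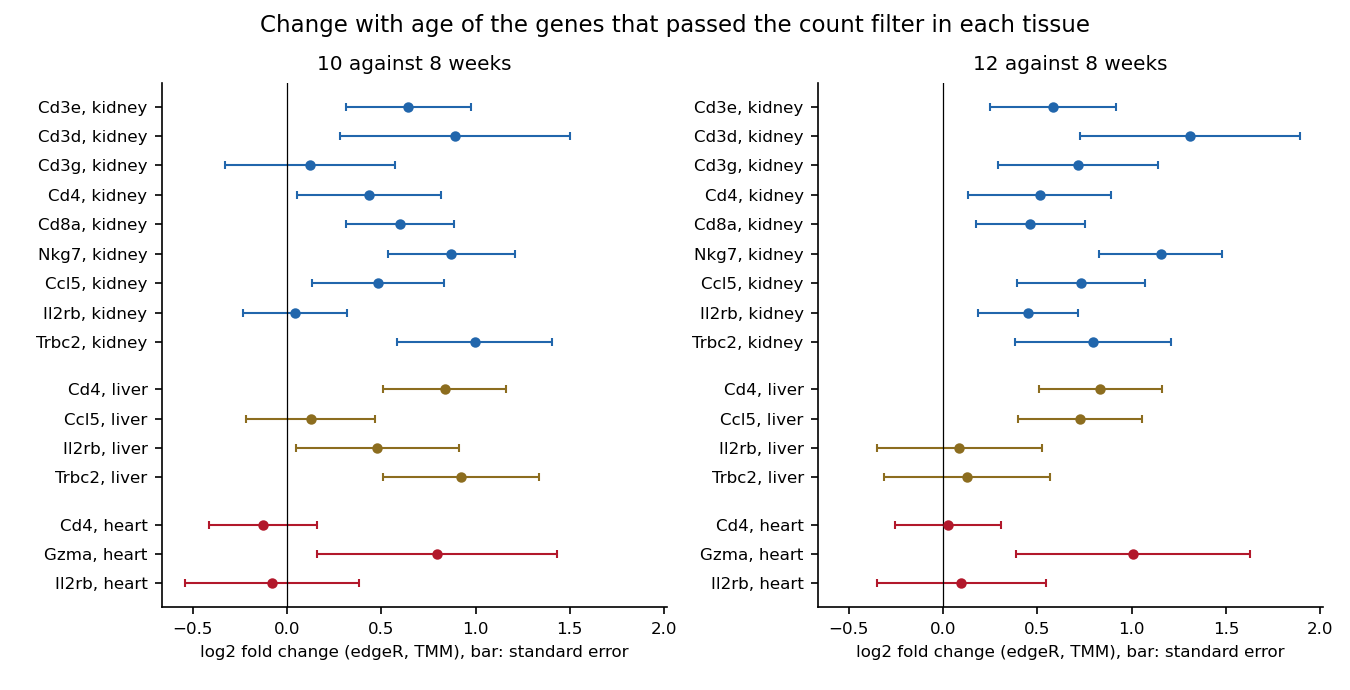
Log2 fold change (horizontal axis, bars for the standard error) at 10 and at 12 weeks against 8 weeks for the members that passed the filter on low counts in kidney (blue), liver (brown) and heart (red). All values of kidney and liver lie to the right of 0, but 5 of the 9 kidney, 2 of the 4 liver and 1 of the 3 heart members passed the filter only through a later age where they were high, and none passed the adjusted p.

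The summed level of the 10 genes in kidney was 4.13, 5.41, 5.04 and 4.18 CPM at 8 weeks, 7.22, 6.09, 6.35 and 6.59 at 10 weeks and 7.47, 9.54, 6.68 and 4.5 at 12 weeks. The 8 and 10 week libraries did not overlap, and at 12 weeks replicate 4 fell back into the range of 8 weeks while replicate 2 was the highest. The mean at 10 weeks was 1.40 times and at 12 weeks 1.5 times that at 8 weeks. Leaving out 1 kidney library at a time moved the median change of the members tested between 0.40 and 0.79 at 12 weeks, lowest without replicate 2 of 12 weeks, and the number with an unadjusted p under 0.05 between 1 and 5. Without that library 8 members were tested, all with a positive change, and without replicate 4 of 12 weeks the number was 5 of 9. These fits kept the filter. With all libraries 5 of the 9 members tested passed it only through a later age, so these directions, medians and numbers are partly set by it.

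Markers of other immune cells were read in the same kidney libraries. The sum of 8 B cell markers was 3.15 to 5.72 CPM at 8 weeks, 4.43 to 8.06 at 10 weeks and 7.34 to 22.2 at 12 weeks, of which 3 passed the filter and 0 were called. The sum of 9 macrophage markers was 106 to 112 CPM at 8 weeks, 110.5 to 124.5 at 10 weeks and 117 to 143 at 12 weeks, with 8 tested, 6 of them positive at 12 weeks and 0 called. The sum of the 6 dendritic cell markers was 18 to 18.7 CPM at 8 weeks and 16.4 to 20.6 at 12 weeks, with 3 positive, 3 negative, a median of 0.01 and 0 called. Their part in the levels of the members was not tested. Of the 31 other T cell genes 19 were tested in kidney, and 13 were positive and 6 negative at 12 weeks with a median of 0.17 and 0 called. Their sum, 22.2 to 26.3 CPM at 8 weeks and 24.1 to 30.2 at 12 weeks, was mostly Bcl11b, Il2rg and Thy1. Of the 15 genes of natural killer and cytotoxic cells 3 were tested, with positive changes, a median of 0.34 and 0 called. The directions in all of these lists come from the fit with the filter, so they too can be partly set by it. Lck changed by 0.51 ± 0.31, Cd247 by 0.19 ± 0.44 and Trac by -0.01 ± 0.26 at 12 weeks (edgeR, adjusted p = 0.558, 0.901 and 0.995).

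**Figure D5:**
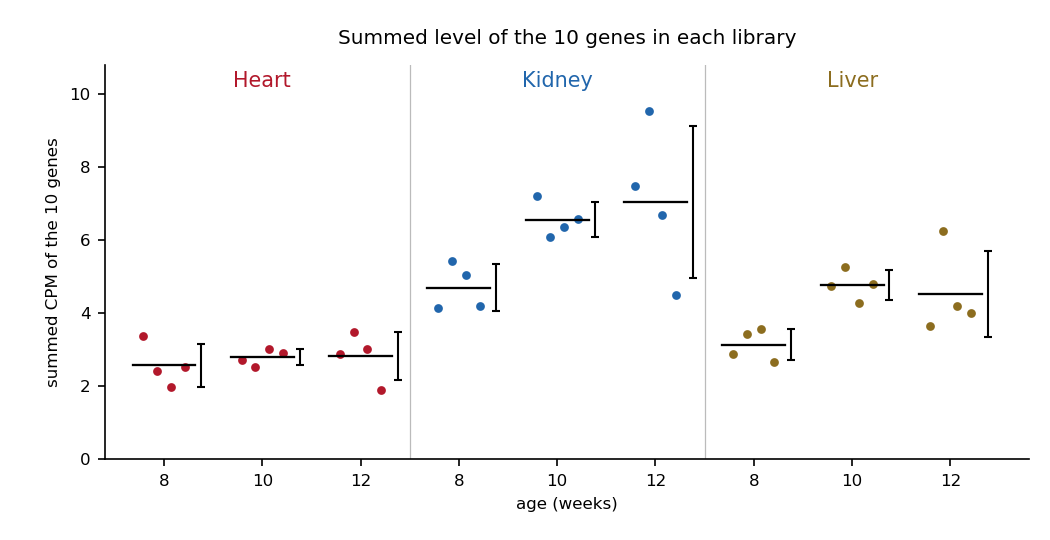
Summed CPM of the 10 genes (vertical axis, starting at 0) in each library by organ and age in weeks, with points for libraries, a line for the mean of 4 and a bar for ± 1 SD. Heart stayed between 1.90 and 3.49 CPM at all ages, kidney and liver libraries of 10 weeks lay above those of 8 weeks, and at 12 weeks 1 kidney library stood at 9.54 and another at 4.5.

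In liver, over all 10 genes without the filter, 10 had a positive log2 change at 10 weeks and 9 at 12 weeks, with medians of 0.44 and 0.70 where the median of all genes was 0.00, and none was called. The fit with the filter tested 4 of them. Cd4 had 1.02, 0.708, 0.999 and 0.663 CPM at 8 weeks, 2.13, 1.01, 1.90 and 1.27 at 10 weeks and 0.775, 2.06, 1.5 and 1.59 at 12 weeks. At 10 weeks 3 of the 4 libraries were clearly above those of 8 weeks and 1 touched them, and at 12 weeks replicate 1 lay among them. The change of Cd4 was 0.84 ± 0.33 at 10 weeks (edgeR, adjusted p = 0.270) and 0.83 ± 0.33 at 12 weeks (adjusted p = 0.262).

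Ccl5 in liver had 0.244, 0.460, 0.380 and 0.354 CPM at 8 weeks and 0.472, 0.846, 0.593 and 0.444 at 12 weeks, which overlapped by 1 library of each age, and changed by 0.73 ± 0.33 (edgeR, adjusted p = 0.320). Trbc2 had 0.244, 0.212, 0.0951 and 0.265 CPM at 8 weeks and 0.628, 0.297, 0.339 and 0.391 at 10 weeks, without overlap, and changed by 0.92 ± 0.41 (adjusted p = 0.326). It was the only member without overlap in that comparison, and 6.07% of all genes that passed the filter were without overlap and higher. Trbc2 had a mean count of 5.0 at 8 weeks, so it passed the filter only through a later age where it was high. Trbc1 stood at 0.65 ± 0.52 at 10 weeks (adjusted p = 0.602) and at -1.35 ± 0.65 at 12 weeks (adjusted p = 0.324), where Trbc2 stood at 0.13 ± 0.44 (adjusted p = 0.920). At each of the 2 ages, 2 of the 4 members tested had an unadjusted p under 0.05, where 14.3% of all genes did at 10 weeks and 15.1% at 12 weeks. Of these, Trbc2 at 10 weeks and Ccl5 at 12 weeks passed the filter only through a later age, so these counts are partly set by it. Without the filter 1 of all 10 genes, Cd4, had such a p at each age.

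The remaining changes against 8 weeks in liver were smaller than their errors or close to them. Ccl5 at 10 weeks changed by 0.13 ± 0.34, Il2rb by 0.48 ± 0.43 at 10 weeks and by 0.09 ± 0.44 at 12 weeks (edgeR, adjusted p = 0.903, 0.653 and 0.949). From 10 to 12 weeks 5 of the 10 were positive without the filter, with a median of 0.01. The summed level of the 10 genes in liver was 2.65 to 3.57 CPM at 8 weeks, 4.28 to 5.26 at 10 weeks and 3.64 to 6.25 at 12 weeks. Neither later age overlapped with 8 weeks, at 12 weeks only by 3.64 against 3.57. The liver sums of the T cell list (12.6 to 17.4 and 18.7 to 20.8 CPM), the thymocyte list and the macrophage list did not overlap between 8 and 10 weeks either. Those of the natural killer, B cell and dendritic cell lists did overlap. The 12 week maximum of the 10 genes was a single library, replicate 2, and the other 3 reached at most 4.19 CPM. Replicate 2 also had the highest sum of 12 weeks in heart and in kidney. Whether these libraries came from the same mouse was not tested.

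Macrophage markers in liver summed to 136 to 332 CPM at 8 weeks, 352 to 491 at 10 weeks and 175 to 212 at 12 weeks, with 9 of 9 tested, 9 positive at 10 and 1 positive at 12 weeks, and 0 called. Their part in the levels of the members was not tested. Of the 31 other T cell genes 9 were tested in liver, all positive at 10 weeks with a median of 0.42, and 4 of 9 positive at 12 weeks with a median of -0.09, and 0 were called. The 2 genes of natural killer and cytotoxic cells that were tested in liver had 1 positive change at each later age and 0 called. These directions, like those of the macrophage and T cell lists, come from the fit with the filter and can be partly set by it.

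In heart 4 of the 10 genes had a positive log2 change from 8 to 12 weeks without the filter, with a median of -0.03. With it 3 genes were tested, and 0 had an unadjusted p under 0.05 in any comparison. Of all genes 23.4% had one at 12 against 8 weeks, 15.8% at 10 against 8 and 11.7% at 12 against 10, so 0 of 3 says little. Gzma had 0.405, 0.0338, 0.134 and 0.272 CPM at 8 weeks (10, 1, 3 and 7 counts), 0.220, 0.0919, 0.725 and 0.413 at 10 weeks and 0.687, 0.498, 0.302 and 0.260 at 12 weeks. The spread within an age was as wide as that between ages, and the change at 12 weeks was 1.01 ± 0.62 (edgeR, adjusted p = 0.326). Cd4 changed by 0.03 ± 0.28 and Il2rb by 0.10 ± 0.45 at 12 weeks (adjusted p = 0.967 and 0.922).

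The other 7 members had at most 12 counts in any heart library and were not tested there. Ccl5 in heart had 6, 5, 6 and 5 counts at 10 weeks and 6, 12, 8 and 7 at 12 weeks, and as CPM every library of 12 weeks lay above those of 10 weeks. Cd3e had 4, 4, 6 and 4 counts at 10 weeks and 2, 2, 3 and 1 at 12 weeks, and every library of 12 weeks lay below. At these counts neither gene passed the filter, and 3.56% and 2.07% of the genes tested in heart were without overlap and higher or lower. The summed level of the 10 genes in heart was 1.97 to 3.37 CPM at 8 weeks, 2.53 to 3.02 at 10 weeks and 1.90 to 3.49 at 12 weeks. Of the 31 other T cell genes 10 were tested, of which 5 were positive and 5 negative at 12 weeks, and 0 were called. These directions too come from the fit with the filter.

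Whether the change from 8 to 12 weeks differed between organs was tested by an interaction term in the model of 36 libraries, where all 10 genes were tested. In none of the 3 pairs of organs was a member called, where 0.112% of all genes were called between kidney and heart, 4.16% between liver and heart and 0.304% between liver and kidney. Trbc2 between kidney and heart was the single member with an unadjusted p under 0.05 in any pair, at 2.02 ± 0.92 on the log2 scale (edgeR, adjusted p = 0.374), in a fit where this gene had 16 and 7 counts over the 4 heart libraries of 8 and of 12 weeks. Of all genes 11.1% had one in that pair. The positive changes of kidney and liver were therefore not shown to differ from the changes in heart.

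Within the groups the 10 genes varied together only loosely. On log2 CPM minus the mean of the group, the 45 pairs of members had a median Pearson r of 0.14 over all 36 libraries, between -0.32 and 0.36, and a median of 0.25 over the 12 kidney libraries, between -0.47 and 0.76. These libraries share their depth among genes, and at few counts the counting error lowers r. Among the genes most like Cd3e over the 36 libraries were Klhl32, Pik3r5, Vcam1, Fam120b, Zfp940, Morc4 and Pag1, with r between 0.62 and 0.66, and those most like Nkg7 were Eif1b, Erg28, Cyp2c55, H4c3, Ift22, Igfbp3, Eif1 and Rpp40, with r between 0.63 and 0.69. They are the extremes of 19716 genes compared over sparse counts. No other member was among them, and Cd3e and Nkg7 themselves had an r of 0.35.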

How the data were processed

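Per the labels and the methods of the study, poly(A) RNA of heart, kidney and liver was sequenced in pairs on an Illumina NovaSeq. The authors trimmed reads with cutadapt 4.2, checked them with FastQC 0.11.9, aligned them with STAR 2.7.11b to GRCm39 with Ensembl annotation, and deposited raw counts of uniquely mapped pairs per gene, without normalization. The column made without regard to strand was used. Rows that name no gene were left out of all totals. They held pairs on several genes or several places, the latter 16.2% to 19.1% of pairs in heart, 7.62% to 9.17% in kidney and 6.26% to 7.04% in liver. Names, positions and exon lengths came from GENCODE M39 on the same build, and 78168 of 78239 identifiers matched.

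The filter on low counts was that of the study, a mean count of 10 or more in some age group with at least 2 of its samples above 0. It left 15137 genes in heart, 17649 in kidney, 14672 in liver and 19716 in the model of 36 libraries, where the groups were tissue by age. Tests used edgeR 4.0.16 in R 4.3.3 (TMM, estimateDisp, glmQLFit, glmQLFTest) with a mean per group, the Benjamini-Hochberg adjustment over all genes kept, and no minimum fold change. The common coefficient of variation was 0.118 in heart, 0.113 in kidney, 0.206 in liver and 0.150 over all. Likeness used log2 CPM with a prior count of 2. Alternatives were RLE factors, DESeq2 1.42.0, limma-voom (limma 3.58.1), no count filter, a replicate block, only the ages compared, each library left out and, added after the data were seen, library size alone. The tests were checked on simulated counts. Sums, ratios and plots were made in python 3.11.15 (numpy 2.4.6, pandas 2.3.3, matplotlib 3.10.9).

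The members and lists were chosen with earlier results of these data known. Named are all 10 members, of the T cell and natural killer lists the 8 genes with the smallest p among those called in a comparison, Cd247, Trac, Trbc1, Lck, Ncr1 and Prf1 in any case, and the 8 genes most like Cd3e and Nkg7, of which 1 is not reported here, nor is the sum of the kidney markers. Marker lists of other cells are given by summed CPM and counts, also between organs, where the rule would have named each marker called. The dendritic, thymocyte and lymph node genes named, Cd8b1 and the ratios of counts were chosen after their values were seen.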

Additional observations from a re-analysis of the deposited data

Results flagged for a closer look

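A value stood apart from the other 3 of its group in 11 of 126 groups examined, by a gap wider than chance gives in about 1 in 20 groups of 4 values. For the members these were mostly differences of a few counts. Among the CD3 chains, Cd3d stood high at 0.330 CPM (9 counts) in heart at 10 weeks, replicate 1, and low at 0.084 CPM (2 counts) in liver at 10 weeks, replicate 1, and Cd3g stood low at 0.161 CPM (5 counts) in kidney at 8 weeks, replicate 4. Cd4 stood low at 0.552 CPM (12 counts) in heart at 10 weeks, replicate 2.

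Of the cytotoxic genes, Nkg7 stood high at 0.324 CPM (8 counts) in heart at 8 weeks, replicate 1, and Gzma was at 0.0 CPM (0 counts) in liver at 12 weeks, replicate 3, where the other libraries of the group had 12 or 13 counts. Ccl5 stood high at 0.427 CPM (12 counts) in heart at 12 weeks, replicate 2, and low at 0.254 CPM (6 counts) in liver at 10 weeks, replicate 3. Il2rb stood high at 1.21 CPM (33 counts) in liver and Trbc2 at 0.731 CPM (22 counts) in kidney, both at 12 weeks and both replicate 2 of their organ. The summed level of the 15 genes of natural killer and cytotoxic cells stood high at 17.1 CPM in liver at 8 weeks, replicate 1, in which S1pr5 alone had 15.1 CPM.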

How the results depend on the processing

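No member was called between ages, or in the difference of the change between organs, under RLE factors, library size alone, DESeq2, limma-voom, no count filter, the replicate block or any single library left out, nor between ages with only the ages compared in the fit, which was not run for the differences between organs. Between organs the counts of members called stayed within 1.5 times, except that library size alone gave 8 in place of 4 between liver and kidney. That setting, chosen after the data were seen, also turned Nkg7 to -0.70, Ccl5 to -0.30, Il2rb to -0.54 and Trbc2 to -0.50 there, and Gzma to -0.23 between liver and heart. Gzma between liver and heart turned to -0.13 with limma-voom and to -0.0122 with the replicate block, Cd3d there to 0.16 and Cd4 in heart at 12 against 8 weeks to -0.0056 with limma-voom. Cd8a between liver and heart passed the threshold with limma-voom at 0.72, and Ccl5 between liver and kidney lost its call without the count filter at 0.44. The cause was not tested.

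With 1 library left out, 35 of 1459 log2 changes turned sign in the comparisons listed here. In those not listed (10 against 8 weeks in heart, 12 against 10 weeks and differences between organs) 58 of 1268 did, with 0 called. The ranges of the former were -0.16 to 0.18 for Cd4 and -0.0028 to 0.28 for Il2rb in heart at 12 weeks, -0.12 to 0.23 for Cd3g and -0.0696 to 0.22 for Il2rb in kidney at 10 weeks, -0.17 to 0.37 for Il2rb and -0.16 to 0.30 for Trbc2 in liver at 12 weeks, -0.0304 to 0.28 for Ccl5 in liver at 10 weeks, each against 8 weeks, -0.0235 to 0.47 for Cd3d between kidney and heart, -0.21 to 0.29 for Cd3d and -0.20 to 0.21 for Gzma between liver and heart, and -0.37 to 0.0033 for Cd3d between liver and kidney.

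Correlations of same-numbered libraries ran from -0.01 to 0.167 across organs of an age, with 35 of 36 positive and a median of 0.051, and from -0.181 to 0.121 across ages, with 18 of 36 positive. Only 4 of the 36 across organs were over the threshold of 0.1, and the numbers were not taken as pairs. Some sums peaked in the same number in all organs. Neutrophil markers at 10 weeks were highest in replicate 2, at 12.0 CPM in heart, 1.43 in kidney and 12.5 in liver. At 12 weeks they were highest in replicate 1 of each organ, and at 8 weeks the highest replicate differed. The 10 genes at 12 weeks had their highest sum in replicate 2 of each organ, at 3.49, 9.54 and 6.25 CPM in the same order. At 8 and 10 weeks that sum peaked in different replicates. Whether the numbers mark the same mouse is not given in the sources used here and was not tested. Per the methods of the study, each age had fewer mice than libraries, so some libraries of different organs came from the same mouse. Apart from the replicate block, the tests between organs took all 36 libraries as independent. With the replicate block 0 members were called between ages and 9, 7 and 4 between organs. Depth limits the set, since most values were under 10 counts and 7 members in heart, 6 in liver and 1 in kidney were not tested for age.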
